A study of Homo sapiens with 24 samples.

Results

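RNU11, RNU12, RNU4ATAC and RNU6ATAC are the small nuclear RNAs of the minor spliceosome, and RPPH1 and RMRP are the RNA subunits of the endoribonucleases RNase P and RNase MRP. They were taken from the peak table by annotation name. All 6 RNAs carried at least 1 peak of RNA crosslinked to Ago2, with 13 peaks among the 24041 of the table and 6 of its 6088 annotated genes. The treated cells were of the human embryonic kidney line 293S and received sodium arsenite, a thiol-reactive stressor, at 1 mM for 30 min, and the untreated cells were of the same line. Ago2 is the Argonaute protein that miRNAs guide to their targets, and the RNA crosslinked to it was recovered by immunoprecipitation (CLIP) from 4 biological replicates of each treatment. LO band libraries, excised in the same procedure, gave the miRNAs bound to Ago2, also from 4 replicates of each treatment. The deposited data hold 1 average and 1 ratio between treatments per peak over all replicates. For each miRNA they hold 1 mean per treatment, with the authors' p-values by DESeq. No value per sample and no sequencing depth could thus be given. The peak values have no replicate error, so no difference between treatments on a peak could be tested. The identity of the cell line was not checked here, because levels of marker RNAs were not analysed.

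The minor spliceosome removes a rare class of introns that the major spliceosome does not recognise. U11 and U12, encoded by RNU11 and RNU12, bind the 5′ splice site and the branch point of these introns as a preformed particle. U4atac and U6atac, encoded by RNU4ATAC and RNU6ATAC, enter paired with each other, and U6atac goes on to the catalytic core once it has been unwound from U4atac. RNase P removes the 5′ leader of precursor tRNAs, and its RNA, encoded by RPPH1, is the catalytic subunit. RNase MRP shares most of its proteins with RNase P and cuts precursor ribosomal RNA in the nucleolus. RPPH1, RMRP and RNU6ATAC are transcribed by RNA polymerase III, and the other 3 RNAs by RNA polymerase II. All of them act chiefly in the nucleus, and they are not known as typical miRNA targets.

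The question was whether Ago2 was found more or less on these RNAs in cells under arsenite stress than in untreated cells. Every peak on the 6 RNAs had a log ratio (arsenite over untreated) above 0, with a median of 2.66 and a range of 0.91 to 3.51. The share above 0 was 70.3% over all peaks, whose median was 0.65, and 42.6% over the 1318 peaks in exons of noncoding RNAs, whose median was -0.18. With 1 peak per gene, the one with the highest log average, the median was 2.74 for the 6 RNAs, with RMRP lowest at 1.37. The median was 1.10 over all 6088 genes, of which 79.9% lay above 0. For the 319 genes with noncoding exon peaks it was 0.66, and 65.8% of them lay above 0. The sign of this noncoding background thus differs between all peaks and 1 peak per gene. All 13 peaks lay above the median of all peaks, and 10 of them above its upper quartile of 1.49. The 10 peaks of RNU11, RNU12, RNU4ATAC, RNU6ATAC and RPPH1 ranged from 1.98 to 3.51. The 3 peaks of RMRP, from 0.91 to 1.40, lay below all of those. The log ratios and log averages of normalized CLIP signal are the authors' own values for each peak. Their log base and normalizer are not stated, so they were not turned into folds, and where 0 lies is set by that scaling. RNA of the same cells was also sequenced, in 4 libraries of each treatment, but those values were not analysed here. More Ago2 on an RNA and more of the RNA itself therefore cannot be told apart from the peak values alone.

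**Figure D1:**
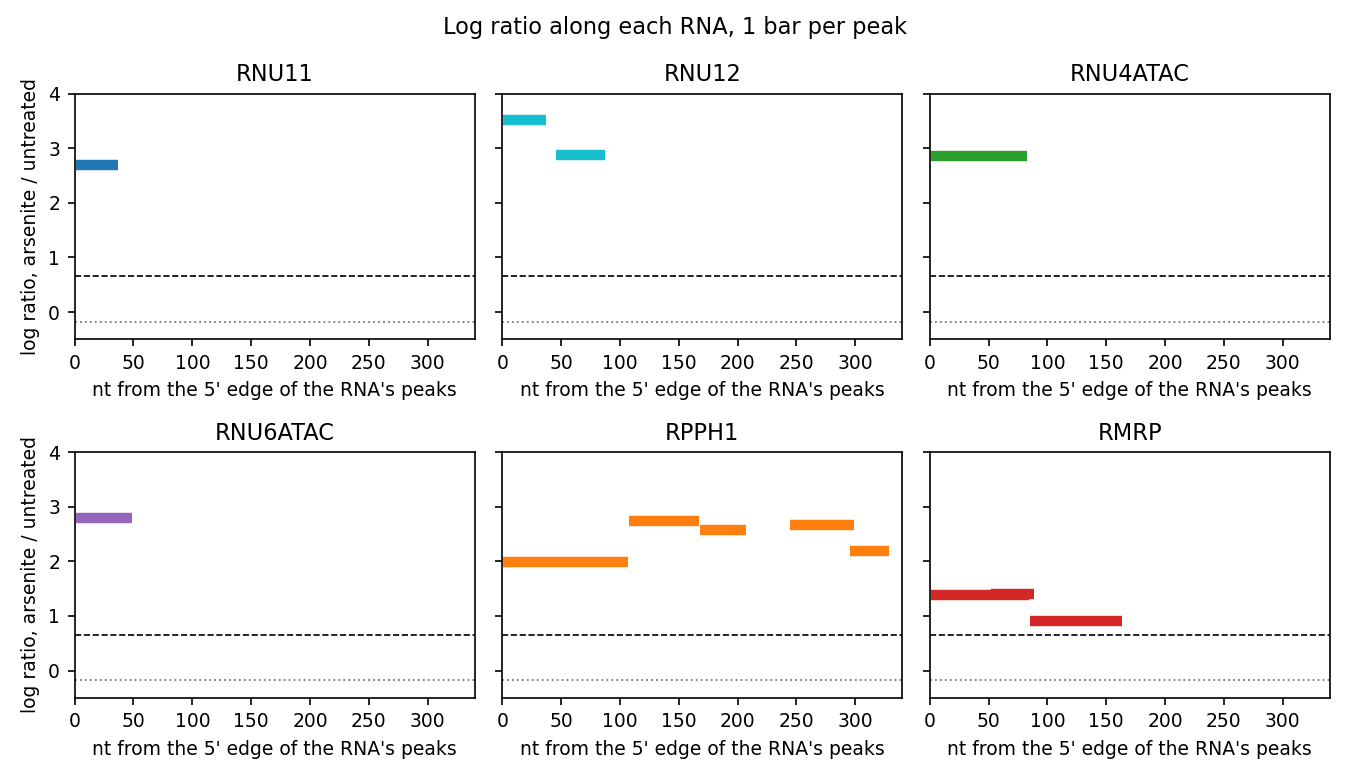
Log ratio of arsenite over untreated signal (vertical axis, base not stated) for each peak of the 6 RNAs, drawn as a bar over its position in nucleotides from the 5′ edge of that RNA's peaks. The dashed line is the median of all peaks, 0.65, and the dotted line that of noncoding exon peaks, -0.18. All 13 bars lie above both lines, and the 3 RMRP bars are the lowest.

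U12 had the highest value of the 6 RNAs. RNU12 carried 2 peaks on the plus strand of chromosome 22 (build hg19, coordinates as deposited), annotated to the exon of NR_029422 and separated by 8 nucleotides. The 5′ peak, at 43011263 to 43011299, had a log ratio of 3.51 and a log average of -5.76. It was higher than 99.5% of all peaks and 98.9% of noncoding exon peaks. The 3′ peak, at 43011308 to 43011349, had a log ratio of 2.87 and a log average of -3.58. The difference of 0.64 between the peaks has no replicate error beside it.

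U11, which forms a particle with U12, had 1 peak. The RNU11 peak lay on the plus strand of chromosome 1, at 28975133 to 28975169 in NR_004407, and had a log ratio of 2.69 with a log average of -4.48. Its log ratio was higher than 96.5% of all peaks. It was 0.18 lower than that of the 3′ peak of RNU12. Whether the log averages are scaled by peak length is not stated, so they are given with each ratio and were not used to rank the RNAs by amount.

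U4atac and U6atac, which pair with each other, also had 1 peak each, and their log ratios differed by 0.06. This likeness was not particular to the pair, since the 3′ peak of RNU12 had 2.87 and the RNU11 peak 2.69. The RNU4ATAC peak covered 83 nucleotides on the plus strand of chromosome 2, at 122288455 to 122288537 in NR_023343. It had a log ratio of 2.85 and a log average of -2.98. The RNU6ATAC peak covered 49 nucleotides on the minus strand of chromosome 9, at 137029609 to 137029657 in NR_023344. It had a log ratio of 2.79 and a log average of -6.81. The log average of the RNU6ATAC peak was thus below that of 85.5% of all peaks, and the number of reads behind it is unknown. The 5 peaks of the 4 minor spliceosome RNAs together had a median log ratio of 2.85 and a range of 2.69 to 3.51.

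RPPH1 had the most peaks of the 6 RNAs, 5 on the minus strand of chromosome 14 in NR_002312. They covered 292 of the 329 nucleotides between the outermost peak ends. From the most 5′ peak on, the log ratio was 1.98 at 20811464 to 20811570, 2.74 at 20811404 to 20811463 and 2.58 at 20811364 to 20811403. After a gap of 37 nucleotides it was 2.66 at 20811272 to 20811326 and 2.20 at 20811242 to 20811275. The outermost peaks were thus the lowest and the 3 inner ones lay within 0.16 of each other. The log averages, in the same order, were -5.73, -6.15, -4.85, -6.05 and -7.65. The highest log average belonged to the middle peak and the lowest to the 3′ peak. The 5 peaks had a median log ratio of 2.58 and lay 0.76 apart at most.

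RMRP, whose RNase shares most of its proteins with that of RPPH1, had the lowest values of the 6 RNAs. Its 3 peaks lay on the minus strand of chromosome 9 in NR_003051 and together covered 163 nucleotides without a gap. Here, as for RNU12 and RPPH1, 5′ and 3′ give only the order of an RNA's peaks. How much of each whole RNA the peaks cover was not analysed. The 5′ peak, at 35657826 to 35657909, had a log ratio of 1.37 and a log average of -2.99. The middle peak, at 35657821 to 35657858, shares 33 nucleotides with it and had 1.40 and -3.87. Their nearly equal ratios therefore rest in part on the same bases. The 3′ peak, at 35657747 to 35657825, had a log ratio of 0.91 and a log average of -3.63. The median of the 3 was 1.37, against 2.58 for RPPH1, and the ranges did not overlap. The RMRP values were higher than 58.4% to 72.6% of all peaks, but higher than 80.1% to 86.2% of noncoding exon peaks.

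The medians of the minor spliceosome RNAs and of the RNase P and MRP RNAs differed by 0.76, at 2.85 over 5 peaks and 2.09 over 8 peaks. The difference was 0.27 without RMRP and 1.48 without RPPH1. No test of it was possible, since peaks of 1 RNA are not replicates.

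**Figure D2:**
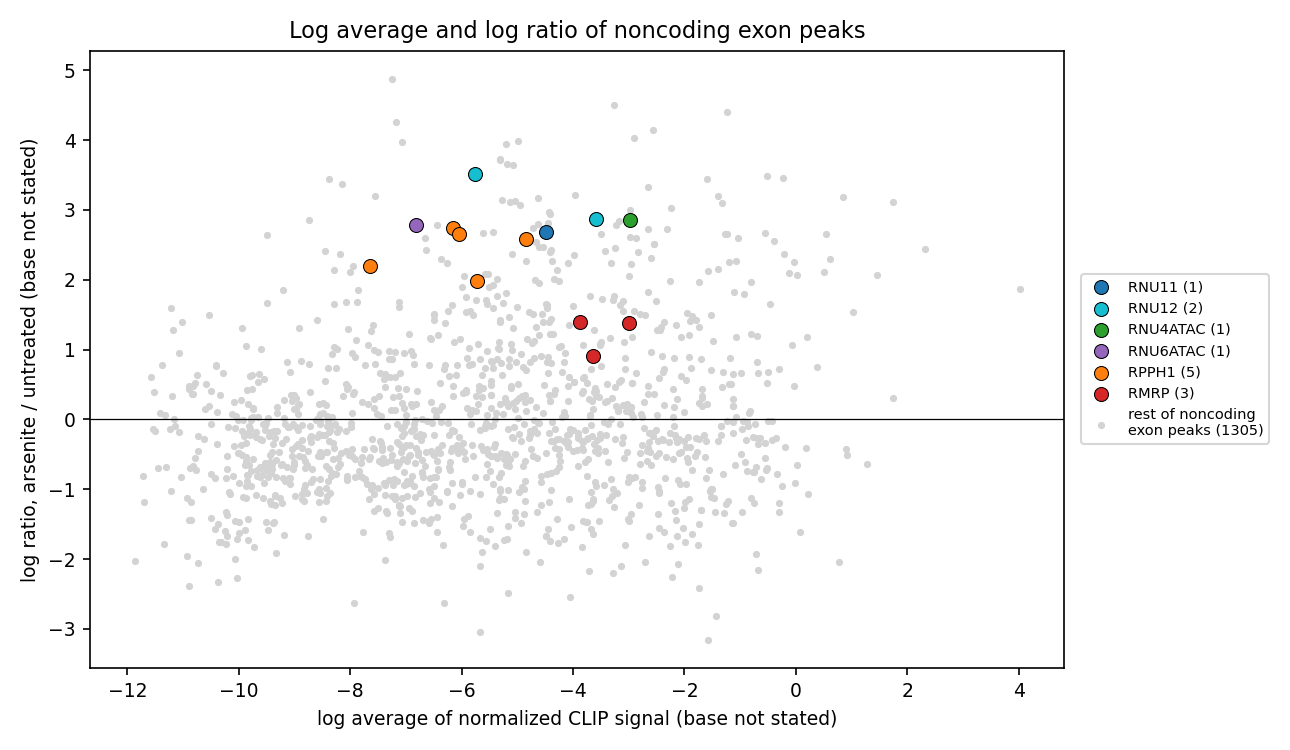
Log average (horizontal axis) and log ratio (vertical axis) of normalized CLIP signal, both of unstated base, for the 13 peaks of the 6 RNAs in colour and the other 1305 noncoding exon peaks in grey. The coloured points span log averages from -7.65 to -2.98 and all lie above a log ratio of 0.

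High log ratios occurred over the whole span of log averages. RNU4ATAC and the 5′ peak of RMRP had log averages of -2.98 and -2.99, and log ratios of 2.85 and 1.37. RNU6ATAC, with a log average of -6.81, had a log ratio of 2.79. The 3′ peak of RPPH1 had the lowest log average, -7.65, higher than only 4.92% of all peaks, and a log ratio of 2.20. The 13 peaks were 34 to 107 nucleotides long with a median of 49, where all peaks had a median of 50.

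Gene copies limit how surely the reads can be placed. By symbol, the RefSeq annotation lists 5 pseudogenes of RNU11, 1 of RNU12, 17 of RNU4ATAC, 41 of RNU6ATAC, 2 of RPPH1 and 1 of RMRP. How reads that map to several copies were treated is not given in the sources used here, and the share of such reads was not tested. No peak annotated to a gene of another name lay within 1000 nucleotides of any of the 13 peaks, on either strand.

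Other classes of small noncoding RNA had log ratios that ran from close to these to far below them. Box C/D small nucleolar RNAs, which guide 2′-O-methylation and have symbols starting with SNORD, had a median of 2.45 over 66 peaks on 58 RNAs, and 65 peaks lay above 0. Box H/ACA small nucleolar RNAs, which guide pseudouridylation (SNORA), had a median of 1.54 over 39 peaks on 31 RNAs, with 37 above 0. Small Cajal body RNAs, which guide modification of spliceosomal RNAs (SCARNA), had a median of 0.33 over 25 peaks on 8 RNAs, with 15 above 0. SCARNA2 alone held 9 of these peaks, and without it the median was 1.02. The remaining 1173 noncoding exon peaks, which include long noncoding RNAs, had a median of -0.28, and the share above 0 was 36.6%. These peaks lie on 215 genes, and with 1 peak per gene their median was 0.04, with 50.7% above 0. Over all peaks, the middle of the 6 RNAs thus lay 0.21 above that of SNORD RNAs and 2.94 above that of the remaining noncoding exons, differences that could not be tested without replicate values.

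The lowest value outside RMRP, 1.98, was reached by 46 of 66 SNORD peaks, 13 of 39 SNORA peaks, 3 of 25 SCARNA peaks and 3.41% of the remaining noncoding exon peaks. The share was 13.4% over all peaks and 8.65% over all noncoding exon peaks. Many small nucleolar RNA peaks thus had values at or above the lowest RPPH1 peak. The minor spliceosome peaks began higher, at 2.69, where the upper quartile was 3.03 for SNORD and 2.43 for SNORA peaks. Values within the range of RMRP were held by 4 of 66 SNORD, 7 of 39 SNORA and 4 of 25 SCARNA peaks. The share in this range was 14.2% over all peaks and 6.15% over all noncoding exon peaks. VTRNA1-1, a vault RNA made by RNA polymerase III, had overlapping peaks of 2.07 and 2.10, and was the only 1 of 14 listed RNAs of that polymerase (7SK, 7SL, Y, vault, BC200 and 5S RNAs) with a row. No row carried any of the 17 symbols searched for major spliceosome and U7 snRNAs, or that of the telomerase RNA TERC, so the minor spliceosome RNAs could not be set beside their major counterparts.

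**Figure D3:**
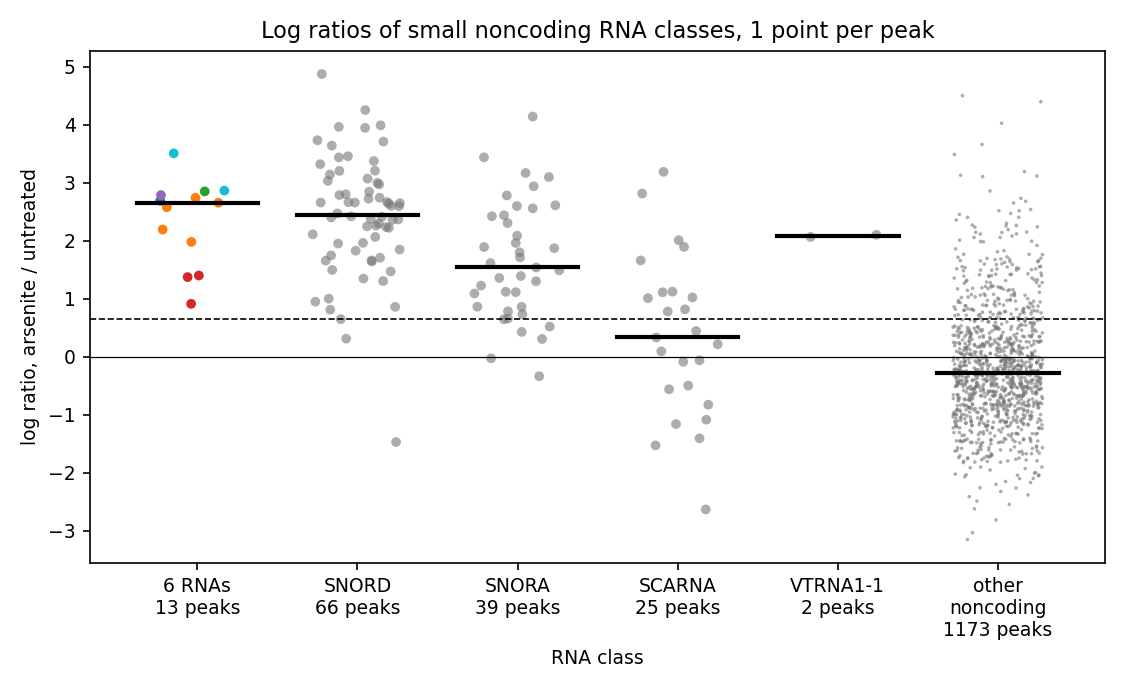
Log ratio of arsenite over untreated signal (vertical axis, base not stated) for peaks of the 6 RNAs (coloured by RNA as in the plot against log average) and of other noncoding RNA classes (grey). Each point is a peak, thick lines are class medians and the dashed line is the median of all peaks. The medians are 2.66 for the 6 RNAs, 2.45 for SNORD, 1.54 for SNORA, 0.33 for SCARNA and -0.28 for the remaining noncoding exons.

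Of the mRNAs of proteins known chiefly as partners of these RNAs, 5 had a peak, with log ratios from -1.49 to 0.01 at 1 peak per gene. The share of all expressed genes with a peak was not analysed, so this number was not read as low or high. Here each gene is represented by its peak with the highest log average, for which 79.9% of all genes lay above 0 and the median was 1.10. Of 13 minor spliceosome protein genes 2 had a peak, and neither lay above 0. SNRNP25, a protein of the U11/U12 particle, had a log ratio of -0.42 in its 3′ untranslated region, and SNRNP48, another, had -0.51 in its coding sequence. Of 11 RNase P and MRP protein genes 3 had a peak, and 1 lay above 0. RPP30 had 0.01, RPP25L, a paralogue of the subunit RPP25, had -0.12, and POP1, the largest protein subunit, had -1.49. The 4 peaks of RPP30 ranged from -0.31 to 1.69, so its value depends on the peak chosen. Over all 6 peaks of the RNase P and MRP protein genes, 3 lay above 0. These are Ago2 peaks on mRNAs and say nothing about the amounts of the proteins.

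Proteins shared with the major spliceosome were spread more widely. Of 14 genes for Sm and LSm proteins, which form rings on U11, U12 and U4atac (Sm) and on U6atac (LSm), 5 had a peak, 4 of them above 0, with a median of 1.35. The highest were LSM7 with 2.99 and SNRPB with 1.51, and the lowest SNRPF with -0.36 and SNRPD1 with 0.97. The 6 peaks of SNRPB ranged from 0.42 to 3.84, and the 3 of SNRPF from -0.36 to 1.09. With the median of each gene's peaks instead, the Sm and LSm list had a median of 0.97. Of 16 genes for U4/U6, U5 and SF3B proteins used by both spliceosomes 9 had a peak, 6 of them above 0, with a median of 1.50. With the median of each gene's peaks instead, this list had a median of 0.66. PRPF8, the large U5 protein at the catalytic centre, had 3.06, but this was the highest of its 20 peaks, whose median was 0.66. SF3B4, a subunit that contacts the branch point region, had 2.97 at its only peak. SNRNP200, the helicase that unwinds U4 from U6, had -0.63, but its 5 peaks ranged from -1.14 to 0.62 with a median of 0.37. SF3B2 had -0.46, the lower of its 2 peaks. The shares above 0 in these lists, 4 of 5 and 6 of 9, are near or below the 79.9% over all genes.

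**Figure D4:**
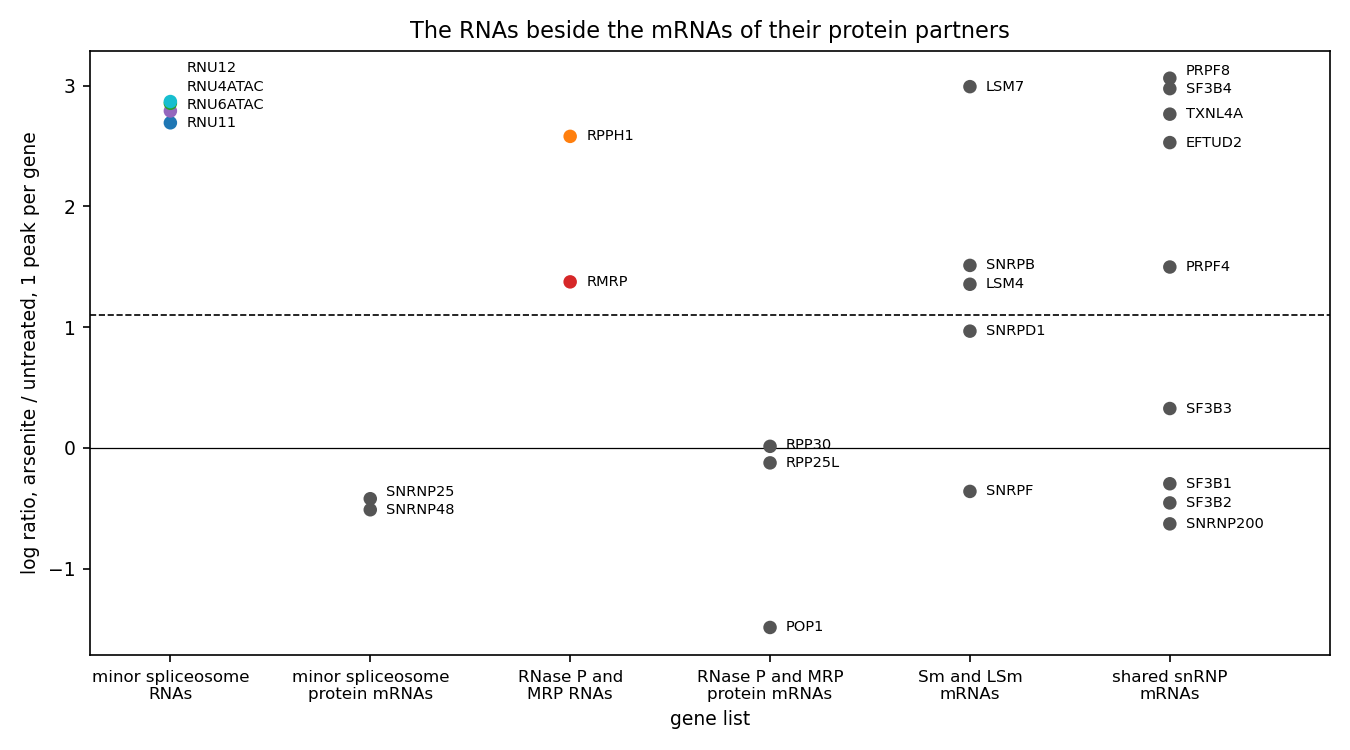
Log ratio (vertical axis, base not stated) at the peak of the highest log average for each of the 6 RNAs and for each mRNA of the partner protein lists that had a peak. The dashed line is the median of all genes, 1.10. All 6 RNAs lie above it, and the 5 mRNAs of minor spliceosome, RNase P and MRP proteins lie below it, from -1.49 to 0.01.

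Seed matches to miRNAs were present in 4 of the 13 peaks, that is 30.8%, where 31.5% of all peaks and 21.5% of noncoding exon peaks had one. The table lists 7-nucleotide matches to 50 miRNA families, and the 4 peaks matched 4 different families. The mature miRNAs concerned are shown to make clear what was matched, from RefSeq (GRCh38.p14), with the seed at bases 2 to 8 in capitals. The 3′ peak of RNU12 matched the miR-23 seed, RNU4ATAC that of miR-18a-3p, RNU6ATAC the seed shared by miR-362-5p and miR-500b, and the 3′ peak of RMRP that of miR-106b-3p.
miR-23a-3p: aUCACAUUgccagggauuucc
miR-23b-3p: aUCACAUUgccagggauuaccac
miR-23c: aUCACAUUgccagugauuaccc
miR-18a-3p: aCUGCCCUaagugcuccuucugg
miR-362-5p: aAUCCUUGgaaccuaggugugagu
miR-500b-5p: aAUCCUUGcuaccugggu
miR-106b-3p: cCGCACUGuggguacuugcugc
The letters that pair with these seeds are AAUGUGA for miR-23, AGGGCAG for miR-18a-3p, CAAGGAU for miR-362-5p and miR-500b, and CAGUGCG for miR-106b-3p. The authors also list miR-130a-5p with the miR-23 family, but its RefSeq entry has CUCUUUU at bases 2 to 8, so it is not shown. Where in each peak the match lies was not analysed here. A match is a run of letters and does not show that the miRNA was bound there.

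Each of these 4 peaks lay above the median of all peaks with the same seed, itself included, and RMRP did so by the least. RNU4ATAC had 2.85, and all 162 peaks that match miR-18a-3p had a median of 0.05. The 3′ peak of RNU12 had 2.87, and the 196 peaks with the miR-23 seed had a median of 0.92. RNU6ATAC had 2.79, and the 50 peaks with the seed of miR-362-5p had a median of 0.59. The 3′ peak of RMRP had 0.91, and the 31 peaks that match miR-106b-3p had a median of 0.57. In each of the 4 families the peak of the minor spliceosome or MRP RNA had the highest log ratio of all noncoding exon peaks with that seed. These sets are small, with 13 peaks for miR-18a-3p, 8 for miR-23, 4 for miR-362-5p and 3 for miR-106b-3p, itself included. The 4 peaks were already higher than 80.1% to 97.3% of all noncoding exon peaks, so this rank adds nothing about the seed. They were also higher than 58.4% to 97.7% of all peaks, so lying above the family medians says little about it either. The other 9 peaks, with no listed seed, ranged from 1.37 to 3.51, so peaks with and without a match overlapped.

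The matching miRNAs themselves did not pass the authors' test for a difference on Ago2. By DESeq, 0% of the 1213 entries in the authors' deposited table passed an adjusted p of 0.05, and 24 entries passed 0.05 unadjusted. The authors' deposited table gave miR-106b-3p, the most abundant of them, means of 222575 with arsenite and 243816 untreated, a log2 fold change of -0.13 (DESeq p = 0.496, adjusted p = 1). miR-18a-3p had means of 18110 with arsenite and 26880 untreated in the authors' deposited table, a log2 fold change of -0.57 (DESeq p = 0.0113, adjusted p = 1). The signs for miR-106b-3p, miR-18a-3p and miR-23b-3p (-0.008) were negative, and those for the other miRNAs shown above were positive. The matched peaks all lay above 0, as did 70.3% of all peaks. Their log ratios have no error and an unstated normalizer, so the signs were not set against each other. In the authors' deposited table miR-23b-3p had 15227 with arsenite and 15308 untreated, miR-23a-3p 7042 and 6349, and miR-23c only 33.9 and 23.6. For miR-362-5p the authors' deposited table gave 12473 with arsenite and 10169 untreated, a log2 fold change of 0.29 (DESeq p = 0.194, adjusted p = 1), and for miR-500b 5638 and 4594. The means are the authors' averages of size-factor-scaled read counts over the LO band replicates.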

How the data were processed

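Peaks were read from the authors' deposited table, in which the CLIP log average and log ratio are score values of unstated log base and normalizer, per the file headers. The miRNA means are signal values (reads divided by size factors), and the ratio, its log2 value and the p-values are the authors' deposited DESeq results. Bowtie 0.12.8, TopHat, DESeq and hg19 appear in the submitters' processing notes, with no step assigned to them. How peaks were called and filtered, and how reads with several matches were handled, is not given in the sources used here. Of the columns used, 0 hold single samples, so nothing could be tested across replicates here beyond the authors' deposited DESeq results. Coordinates are printed as deposited, since the table does not say whether its starts are counted from 0, and peak lengths include both end positions. Medians, counts and ranks were computed with Python 3.11.15 and pandas 2.3.3, and the summaries were tested on simulated data. Partner genes were described by the peak with the highest log average, and the 2 highest and 2 lowest of each list were named by rule. RPP30, RPP25L, POP1, SNRNP25 and SNRNP48 are all the genes of their lists with a peak. The members and lists were chosen with earlier results of these data known.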

Additional observations from a re-analysis of the deposited data

How the results depend on the processing

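The median log ratio of the 13 peaks, 2.66, was 2.74 with 1 peak per gene or with the median of each gene's peaks, 2.35 as a mean, and 2.58 to 2.74 when each RNA was left out in turn. Centring on the median of all peaks gave 2.003, and centring on noncoding exon peaks 2.83. All peaks stayed above 0 in each of these settings, but only centring on the median of all peaks could have changed this. The others choose among or summarise peaks that all lay above 0, or raise them. With 1 peak per gene or with gene medians the number above 0 was thus 6 of 6. Of all genes, 79.9% lay above 0 with 1 peak per gene. The number was 11 of 11 in the upper 75% of log averages and 8 of 8 without RPPH1. The difference between the minor spliceosome RNAs and the RNase P and MRP RNAs, 0.76, was 0.84 with 1 peak per gene or with gene medians and 0.88 in the upper 75% of log averages. It was 0.77 without RNU11 or without RNU6ATAC, 0.70 without RNU12, 0.74 without RNU4ATAC, 1.48 without RPPH1 and 0.27 without RMRP. Centred on the median of all peaks, the values were 2.04 for RNU11, 2.53 for RNU12, 2.20 for RNU4ATAC, 2.13 for RNU6ATAC, 1.92 for RPPH1 and 0.72 for RMRP. Centring gave -1.12 for the minor spliceosome proteins and 1.41 for VTRNA1-1, which had 2.08 as the median of its peaks. The median of SCARNA RNAs was 0.92 with 1 peak per gene. Leaving out SCARNA2 was chosen after seeing the data.

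No paired analysis was possible because the tables hold no values of single replicates, and leaving out a replicate was not run for the same reason. The number of reads behind each peak is unknown, and so is the precision of its log ratio.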
